A study of Mus musculus with 43 samples.

Results

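The 12 tRNA-Gly-GCC fragment entries of the count tables, tRNA-Gly-GCC-1 to tRNA-Gly-GCC-4 with the 3 fragment types tRF_5′, tRF_3′ and tRF_other, were described across mouse epididymis tissue, epididymal fluid and sperm of wild-type (WT) and Rnase9-12 knockout (KO) males. They were chosen by name alone. All 12 were listed in each table, among 4890 tissue, 3178 fluid and 4323 sperm entries, of which 651, 645 and 654 were tRNA fragments (tRFs). All 12 also passed the filter on low counts in each table, which left 3488, 2023 and 2480 entries to test.

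tRNA-Gly-GCC carries glycine to the ribosome and reads glycine codons through its GCC anticodon. Isodecoders are tRNAs that share an anticodon and differ elsewhere in their sequence, and they are numbered here as in the tables. tRFs are made when ribonucleases cut a mature tRNA, often in the anticodon loop, and angiogenin, a secreted enzyme of the RNase A family, is the best known of these enzymes. Fragments of the 5′ side of tRNA-Gly-GCC are known as an abundant small RNA of mature mouse sperm, and sperm gain many of their tRFs while they pass through the caput (head), corpus (body) and cauda (tail) of the epididymis. A tRF_5′ holds the 5′ end of the tRNA and a tRF_3′ its 3′ end, whereas a tRF_other reaches neither end. A read that began within 3 nt of the 5′ end and stopped within 5 nt of the 3′ end was counted as a full-length tRNA instead.

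In RefSeq, 14 mouse genes encode tRNA-Gly-GCC (n-TGgcc1 to n-TGgcc14, each 71 bases long) on 7 chromosomes of the build GRCm38, which is the mm10 build named in the submitters' processing notes. By the GENCODE annotation, 9 of them are intergenic, 5 lie in introns and 0 in exons. A group of 4 genes spans chr1:171044985-171081946. The intronic genes are n-TGgcc8 at chr2:57182394-57182464 in 4930555B11Rik, n-TGgcc9 at chr3:84229011-84229081 in Trim2, n-TGgcc11 at chr8:110630553-110630623 and n-TGgcc10 at chr8:110631246-110631316 in Vac14, and n-TGgcc2 at chr8:111062561-111062631 in Clec18a. The count tables list 13 tRNA-Gly-GCC gene entries, 8 for isodecoder 2, 3 for isodecoder 1 and 1 each for isodecoders 3 and 4, and these were not matched to the RefSeq names.

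The mice were of the FVB strain and 8 to 12 weeks old. KO mice were homozygous for a CRISPR/Cas9 deletion of the locus that holds Rnase9, Rnase10, Rnase11 and Rnase12, which are RNase A family genes active in the epididymis, and WT mice carried the intact locus. Tissue libraries (ARM-seq, from 1 μg of RNA) came from the caput (3 WT, 3 KO), corpus (3 WT, 2 KO) and cauda (3 WT, 3 KO). Fluid libraries (OTTR-seq) numbered 3 WT and 3 KO for each segment, and sperm libraries from the cauda (OTTR-seq) numbered 4 WT and 4 KO. Each fluid or sperm library held RNA pooled from 3 mice, whereas pooling was not stated for tissue, so that p-values measure the spread between the libraries sequenced. Fluid was what remained after sperm and vesicles had been removed. RNA was treated with polynucleotide kinase before library preparation, so that fragments with blocked ends could be captured. For 7 caput libraries, 1 of tissue and all 6 of fluid, the section entry of the labels reads Cauda although title and description give the caput, and they were used as caput. The deleted genes are not among the counted small RNAs, so the genotype could not be checked in these counts.

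Tissue libraries held 30142156 to 249732714 counts, fluid libraries 1948718 to 12320922 and sperm libraries 1134840 to 62128314. The tissue libraries numbered replicate 3 were the deepest of their group and the richest in tRFs, in both genotypes. The KO libraries of corpus fluid held 1948718 to 3373869 counts against 3989262 to 10172577 in WT. Among the sperm libraries, WT replicate 1 and KO replicates 1, 2 and 3 held 42764979 counts or more, and the other 4 held 3618739 or fewer. tRFs made up 0.690 to 5.20% of all counts in tissue, 73.6 to 87.9% in fluid and 1.51 to 8.39% in sperm. A read with several equally good matches was counted on each, so these are shares of counts and not of reads. The 5 epithelial miRNA genes looked up (the Mir200 family and Mir141) were counted in every group. Of the germ cell miRNA genes (Mir34b, Mir34c, Mir449a, Mir449c), 2 of 4 were listed in tissue and 4 of 4 in sperm. Those listed summed to at most 0.421 CPM in tissue and to 15.9 to 57.4 CPM in sperm. CPM are counts per 1000000 counts, after TMM scaling for the fragments but by library total alone for the marker genes. Fragment and marker CPM are therefore not on the same scale. Tissue and the other libraries differ in protocol and were scaled in separate tables, so that levels are given side by side and the source and the protocol cannot be told apart. In bulk RNA, fewer cells of a type and less RNA per cell cannot be told apart either.

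Most tRNA-Gly-GCC counts in fluid were tRF_5′, whereas tissue and sperm held a large part of tRF_other as well. For isodecoder 2, the isodecoder with the most gene copies, tRF_5′ made up 80.6 to 91.7% of the fragment counts in the 18 fluid libraries, 22.2 to 71.3% in the 17 tissue libraries and 18.7 to 54% in the 8 sperm libraries. tRF_other made up 0.283 to 8.6% in fluid, 25.2 to 74.3% in tissue and 40.4 to 66.4% in sperm. tRF_3′ was the smallest type in tissue and sperm, with 2.47 to 7.94% and 3.37 to 15.7%, and made up 6.01 to 12.5% in fluid. The fluid libraries overlapped no tissue or sperm library in the percentage of tRF_5′ or of tRF_other. Within tissue, the mean percentage of tRF_5′ in the WT caput was 36.9% ± 15.3 (SD, n = 3), that in the corpus 55.2% ± 13.7 (SD, n = 3) and that in the cauda 57.9% ± 11.8 (SD, n = 3), and the libraries of the 3 segments overlapped. The percentage of tRF_3′ in cauda tissue was 2.47, 4.36 and 3.47 in WT and 5.66, 7.94 and 5.83 in KO, so every KO library lay above every WT library. Within the tRF_3′ counts of cauda tissue, isodecoder 1 took 7.9 to 10.9% in WT and 14.3 to 14.9% in KO, again without overlap, and neither share was tested.

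**Figure D1:**
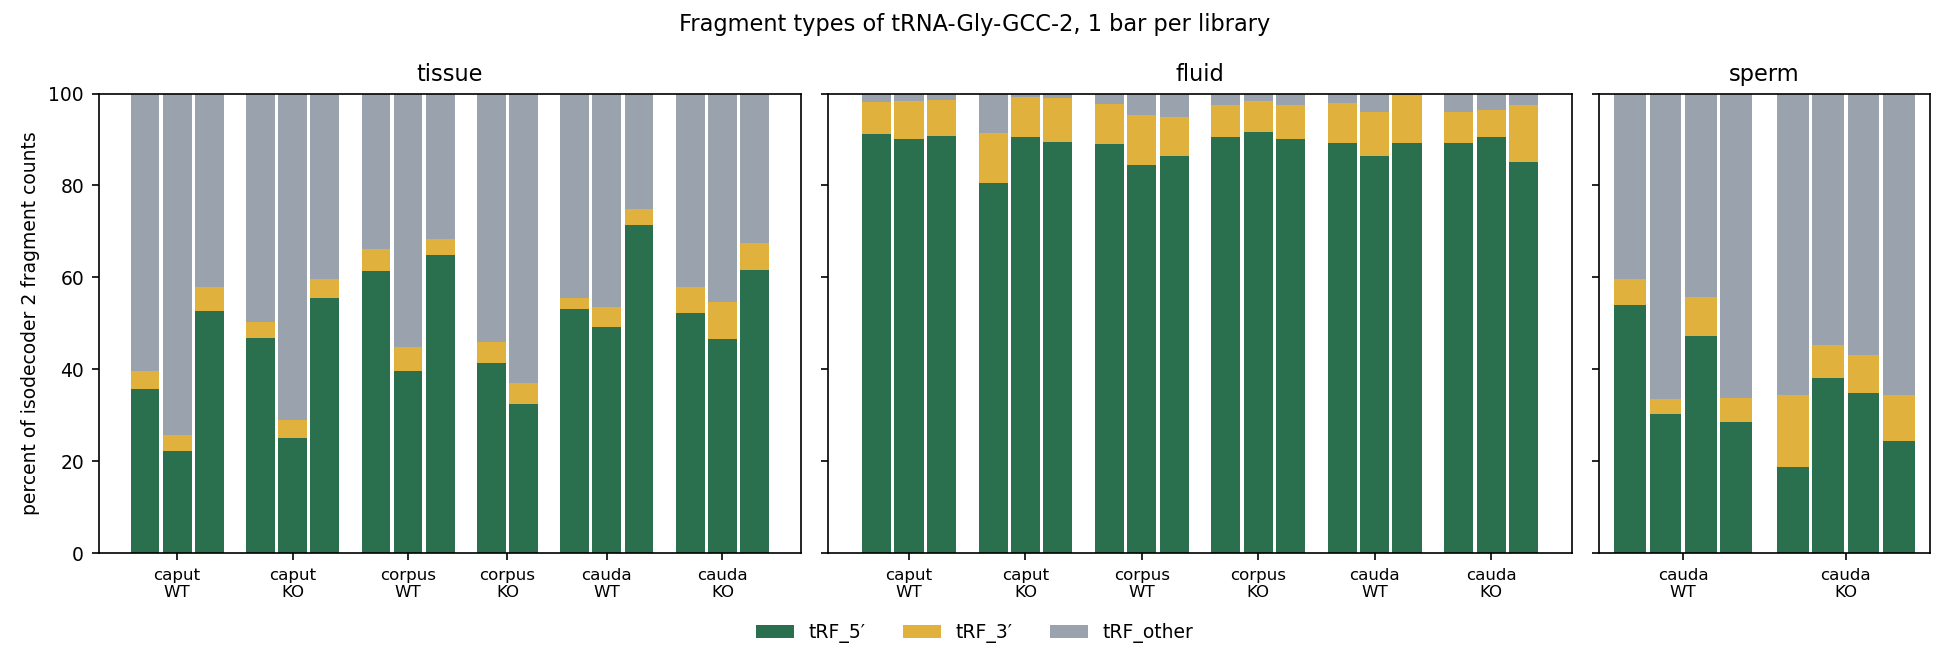
Share of tRF_5′, tRF_3′ and tRF_other in the counts of tRNA-Gly-GCC-2 (percent, vertical axis), with 1 stacked bar per library and libraries grouped by segment and genotype in tissue, fluid and sperm. tRF_5′ takes 80.6 to 91.7% of each fluid bar, while grey tRF_other takes 25.2 to 74.3% of the tissue bars and 40.4 to 66.4% of the sperm bars.

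All 4 isodecoders could be told apart in the tRF_3′ counts, whereas some entries of the other types were near-identical. In tissue, however, the tRF_3′ counts of isodecoders 3 and 4 ran close together, with isodecoder 3 at 114.8 to 126.5% of isodecoder 4 per library. A read was counted on each tRNA that it matched equally well, and the tRF_5′ counts of isodecoders 2, 3 and 4 differed by at most 3 counts in any fluid library and at most 5 in any sperm library. In tissue, the tRF_5′ count of isodecoder 2 was 100.5 to 103% of that of isodecoder 3. These 3 entries are therefore close to 1 measurement. Isodecoder 1 had fewer, with tRF_5′ counts that came to 10.7% of those of isodecoder 2 in tissue, 10.05% in fluid and 22.6% in sperm, summed over libraries. The tRF_other counts of isodecoders 1 and 2 differed by at most 5 counts in tissue and in fluid and by at most 3 in sperm. In fluid, tRF_other of isodecoder 4 summed to 200866 counts and that of isodecoder 2 to 200851, and isodecoder 2 is given for all tables. In tissue, tRF_other of isodecoder 3 was 58.4 to 93.5% of that of isodecoder 2, and in sperm 95.4 to 98.9%.

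Isodecoder 2 had the most tRF_3′ counts in all 17 tissue and all 8 sperm libraries, while in fluid the first place varied between isodecoders 4 and 2. Isodecoder 4 exceeded isodecoder 2 in 10 of 18 fluid libraries, which were all 6 of the caput, 1 of 3 WT and 0 of 3 KO of the corpus, and 2 of 3 WT and 1 of 3 KO of the cauda. Isodecoder 2 summed to 86005 tRF_3′ counts over the tissue libraries, isodecoder 3 to 19321, isodecoder 1 to 17656 and isodecoder 4 to 15875. In fluid the order of the sums was isodecoder 4 with 720828, isodecoder 2 with 627708, isodecoder 1 with 46879 and isodecoder 3 with 1616. In sperm it was isodecoder 2 with 37652, isodecoder 4 with 15048, isodecoder 3 with 4223 and isodecoder 1 with 3088. Per library, isodecoder 4 held 36.3 to 56.5% of the tRF_3′ counts in fluid, 7.56 to 21.6% in tissue and 13.9 to 37% in sperm. Isodecoder 3 held 9.1 to 26.8% in tissue and 3.97 to 26.6% in sperm, but 0.0409 to 0.476% in fluid, where its level was 6.12 to 39.3 CPM. Neighbours in the tissue order overlapped: isodecoders 1, 3 and 4 held 7.9 to 15.3%, 9.1 to 26.8% and 7.56 to 21.6%.

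**Figure D2:**
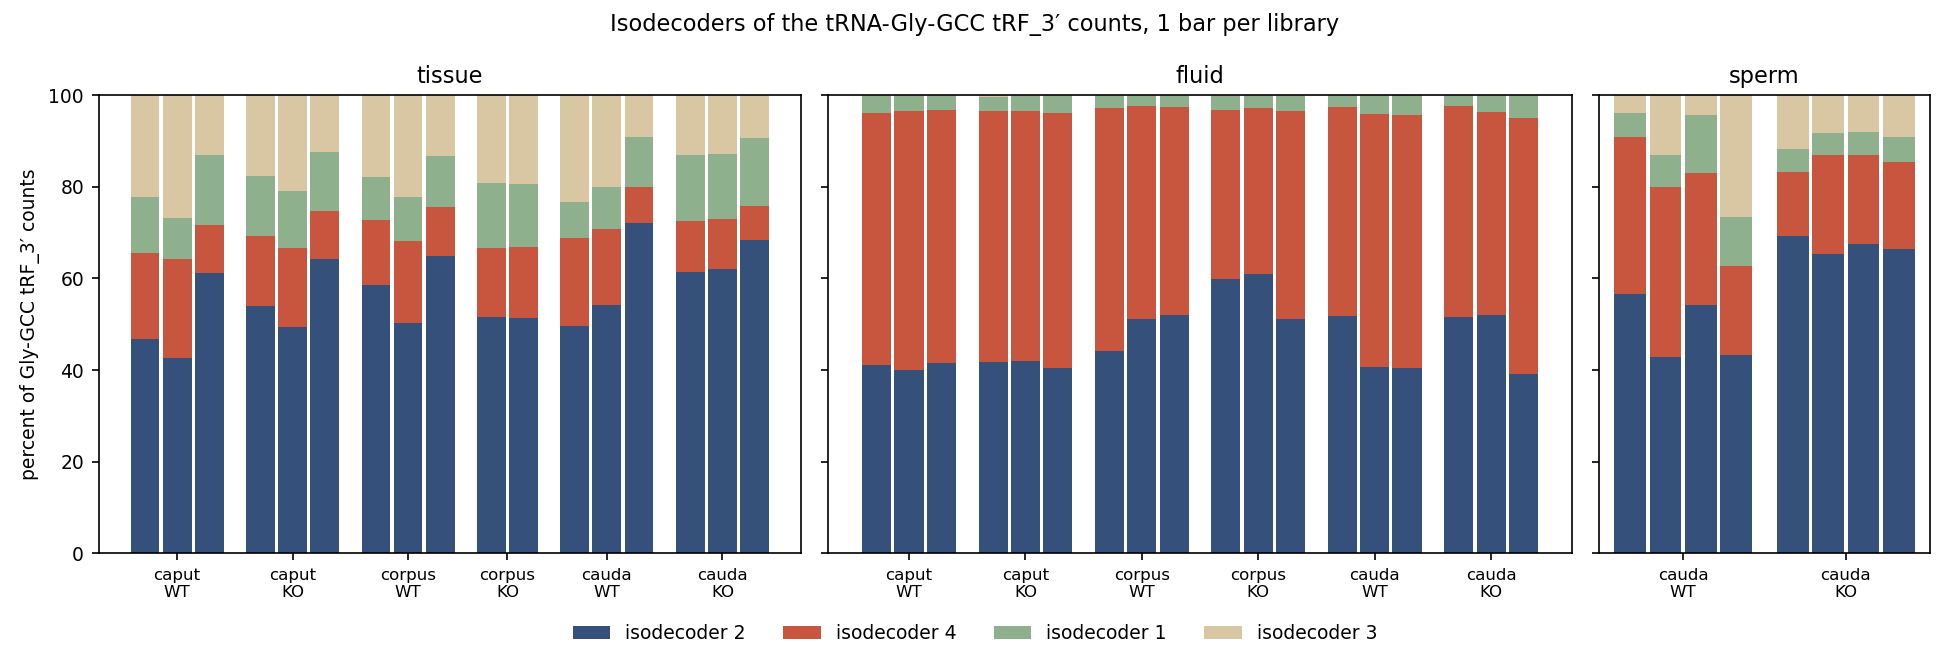
Share of isodecoders 1 to 4 in the tRNA-Gly-GCC tRF_3′ counts (percent, vertical axis), with 1 stacked bar per library. Isodecoder 4 (red) fills 36.3 to 56.5% of the fluid bars and 7.56 to 21.6% of the tissue bars, and in sperm its part is 19.5 to 37% in WT and 13.9 to 21.6% in KO.

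tRNA-Gly-GCC was a large part of the tRF_5′ counts and a small part of the tRF_3′ counts. Summed over isodecoders, it made up 11.9 to 52.8% of all tRF_5′ counts in tissue, 31.5 to 50.05% in fluid and 16.1 to 34.7% in sperm. For tRF_3′ the percentages were 0.259 to 1.1, 1.38 to 4.65 and 0.856 to 3.3. A read counted on several isodecoders enters these sums each time, which raises the share of anticodons with near-identical isodecoders. Of all tRF counts, tRNA-Gly-GCC made up 7.96% ± 2.82 (SD, n = 3) in WT caput tissue, 11.3% ± 6.33 (SD, n = 3) in corpus and 16.7% ± 2.6 (SD, n = 3) in cauda. Caput fluid of WT held 15.2% ± 0.638 (SD, n = 3), corpus fluid 22.1% ± 0.59 (SD, n = 3) and cauda fluid 22.7% ± 1.45 (SD, n = 3). WT sperm held 14% ± 3.32 (SD, n = 4) and KO sperm 17.3% ± 1.59 (SD, n = 4). Cauda libraries lay above every caput library in tissue and in fluid (exact permutation test, 2-sided p = 0.1 for each, the smallest value that 3 against 3 libraries allow, adjusted p = 0.33 over 66 ratios and shares). With only the most counted isodecoder of each anticodon and fragment type, caput fluid held 9.08% ± 0.168 (SD, n = 3), corpus fluid 13.6% ± 0.432 (SD, n = 3) and cauda fluid 14% ± 0.616 (SD, n = 3).

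Levels along the WT epididymis were compared to ask how tRNA-Gly-GCC fragments change as sperm move from caput to cauda. In fluid, tRNA-Gly-GCC-2 tRF_3′ rose from the caput to the cauda and was the member called, which required an edgeR adjusted p under 0.05 together with a log2 fold change beyond 1 in size. Its level was 2956, 3186 and 3834 CPM in the 3 caput libraries, 5138, 5934 and 3879 CPM in the corpus and 6096, 5282 and 9607 CPM in the cauda (log2 fold change 1.07, SE 0.38, edgeR adjusted p = 0.0417). Every cauda library lay above every caput library. It was 1 of 12 members called, against 25.1% of all 2023 RNAs in this comparison (9.69% higher and 15.4% lower). Leaving out any 1 of 5 of the 6 libraries (all but cauda replicate 2) took the adjusted p above the threshold, up to 0.151 without cauda replicate 3.

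The tRF_5′ entries of fluid showed the same order with smaller fold changes. tRNA-Gly-GCC-2 tRF_5′ was at 39266, 34633 and 43880.5 CPM in the caput, 53399, 45958 and 39041 CPM in the corpus and 63009, 47378 and 82105 CPM in the cauda (log2 fold change 0.71, SE 0.28, edgeR adjusted p = 0.0679). The cauda libraries all lay above the caput libraries, while the corpus libraries overlapped both. tRNA-Gly-GCC-1 tRF_5′ passed the adjusted p but not the fold limit (log2 fold change 0.95, SE 0.30, edgeR adjusted p = 0.0241), with 3679, 3027 and 3917 CPM in the caput and 6558, 5686 and 8282 CPM in the cauda. tRNA-Gly-GCC-4 tRF_3′, the tRF_3′ with the highest sum over all fluid libraries, was at 3971, 4490.3 and 5115 CPM in the caput and 5364, 7148 and 13088 CPM in the cauda (log2 fold change 0.92, SE 0.48, edgeR adjusted p = 0.159). In all, 7 of the 12 members had every cauda library above every caput library, against 16.5% of all RNAs. These were the 4 tRF_5′ entries, of which those of isodecoders 2, 3 and 4 are close to 1 measurement, and 3 tRF_3′ entries. The 27 tRF_5′ of a comparison list of 8 other anticodons (Gly-CCC, Gly-TCC, Glu-CTC, Glu-TTC, Val-AAC, Val-CAC, Lys-CTT and His-GTG) had a median log2 fold change of 0.98 with 13 called higher and 1 lower, and the 183 tRF_5′ of all anticodons had a median of 0.09 with 27 called higher and 67 lower.

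In corpus fluid, tRF_other had the largest fold change of the 3 types against the caput. tRNA-Gly-GCC-2 tRF_other was at 833, 662 and 683 CPM in the caput and 1386, 2601 and 2296 CPM in the corpus, with no overlap (log2 fold change 1.53, SE 0.65, edgeR adjusted p = 0.106). The 4 tRF_other entries had unadjusted p-values of 0.0274 to 0.0276 from the edgeR fit and 0 of 12 members were called by edgeR or DESeq2, against 17.7% of all RNAs (8.21% higher and 9.54% lower). The median of all 198 tRF_other was a log2 fold change of 1.07, with 71 called higher and 1 lower. In the cauda the values were 1442, 2199 and 259.9 CPM, where replicate 3 stood far below the other two. For isodecoder 2 the log2 ratio of tRF_5′ to tRF_3′ was 3.73, 3.44 and 3.52 in the caput, 3.38, 2.95 and 3.33 in the corpus and 3.37, 3.17 and 3.10 in the cauda, with the caput libraries above the others (exact permutation test, p = 0.1 against either segment, adjusted p = 0.33). Summed over the 4 isodecoders, the caput overlapped the others. Some cell type markers of WT fluid moved with the segment. Against the caput, the germ cell genes (3 of 4 counted) were higher without overlap in both other segments, with 1.85 to 3.29 CPM in the caput, 3.74 to 11.3 CPM in the corpus and 10.02 to 27.9 CPM in the cauda. The same held for the leukocyte miRNA genes (3 of 3 counted), with 6.77 to 10.5 CPM in the caput, 13.5 to 20.4 CPM in the corpus and 14.8 to 47.9 CPM in the cauda. The red blood cell genes (2 of 3 counted) were higher without overlap only in the cauda (37.3 to 53.8 CPM against 19.6 to 23.2 CPM), and the epithelial genes were lower without overlap only in the corpus (28.3 to 76.5 CPM against 97 to 168 CPM). The part of these cells in the differences was not tested.

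In WT tissue, tRNA-Gly-GCC-2 tRF_5′ was at 198, 110.1 and 585 CPM in the caput, 357, 196 and 953 CPM in the corpus and 479, 465 and 1475 CPM in the cauda. Replicate 3 was the highest in each segment, and the segments overlapped. The cauda against caput log2 fold change was 1.44 (SE 0.74, edgeR adjusted p = 0.185), and 0 of 12 members were called by edgeR or DESeq2, with 0 at an unadjusted p under 0.05, against 23% of all 3488 RNAs called (15.7% higher and 7.28% lower). With 1 library left out the fold change ran from 0.83 (without cauda replicate 3) to 2.41 (without caput replicate 3, edgeR adjusted p = 0.0425, and called). A fit of all tissue libraries blocked by replicate number was also tried. Same-numbered libraries correlated in this comparison (0.306, 0.394 and 0.633), but not in every KO and WT pair of the caput (0.0288 in pair 1) and corpus (-0.0331 in pair 2). In this blocked fit the tRF_5′ entries of isodecoders 2, 3 and 4 were called (isodecoder 2: log2 fold change 1.56, SE 0.28, edgeR adjusted p = 0.000157), against 29.6% of all RNAs. That fit called 10 of all 199 tRF_5′ higher and 3 lower, and 5 of the 35 tRF_5′ of the comparison list higher and 1 lower. The caput-to-cauda difference of isodecoder 2 was 1.28 to 2.08 within the 3 same-numbered pairs, higher in 3 of 3. Without the replicate 3 libraries, tRF_5′ of all 4 isodecoders was called higher (isodecoder 2: log2 fold change 1.73, SE 0.43, edgeR adjusted p = 0.0102), against 26.4% of all RNAs (19.8% higher). The corresponding medians without the block were -0.26 for all 199 tRF_5′ and 0.07 for the 35 tRF_5′ of the comparison list. The smooth muscle genes (Mir143 and Mir145a) summed to 30.04 to 51.9 CPM in the WT caput and 69.7 to 231 CPM in the WT cauda, without overlap, whereas the other marker lists overlapped between these segments, and their part was not tested. In WT tissue the log2 ratio of tRF_5′ to tRF_3′ of isodecoder 2 was 3.20, 2.69 and 3.34 in the caput and 4.42, 3.49 and 4.36 in the cauda, without overlap and in the opposite direction to fluid (mean difference 1.02, exact permutation test, p = 0.1, adjusted p = 0.33). Summed over the 4 isodecoders, the difference was 1.22 and the groups overlapped. For corpus against caput, the blocked value of isodecoder 2 was below the fold limit (log2 fold change 0.79, SE 0.28, edgeR adjusted p = 0.044, without the block 0.75 at adjusted p = 0.578), and 0 of 12 members were called by edgeR with or without the block or by DESeq2, against 11.8% of all RNAs (9.0% higher and 2.81% lower, and 19.1% in either direction with the block).

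**Figure D3:**
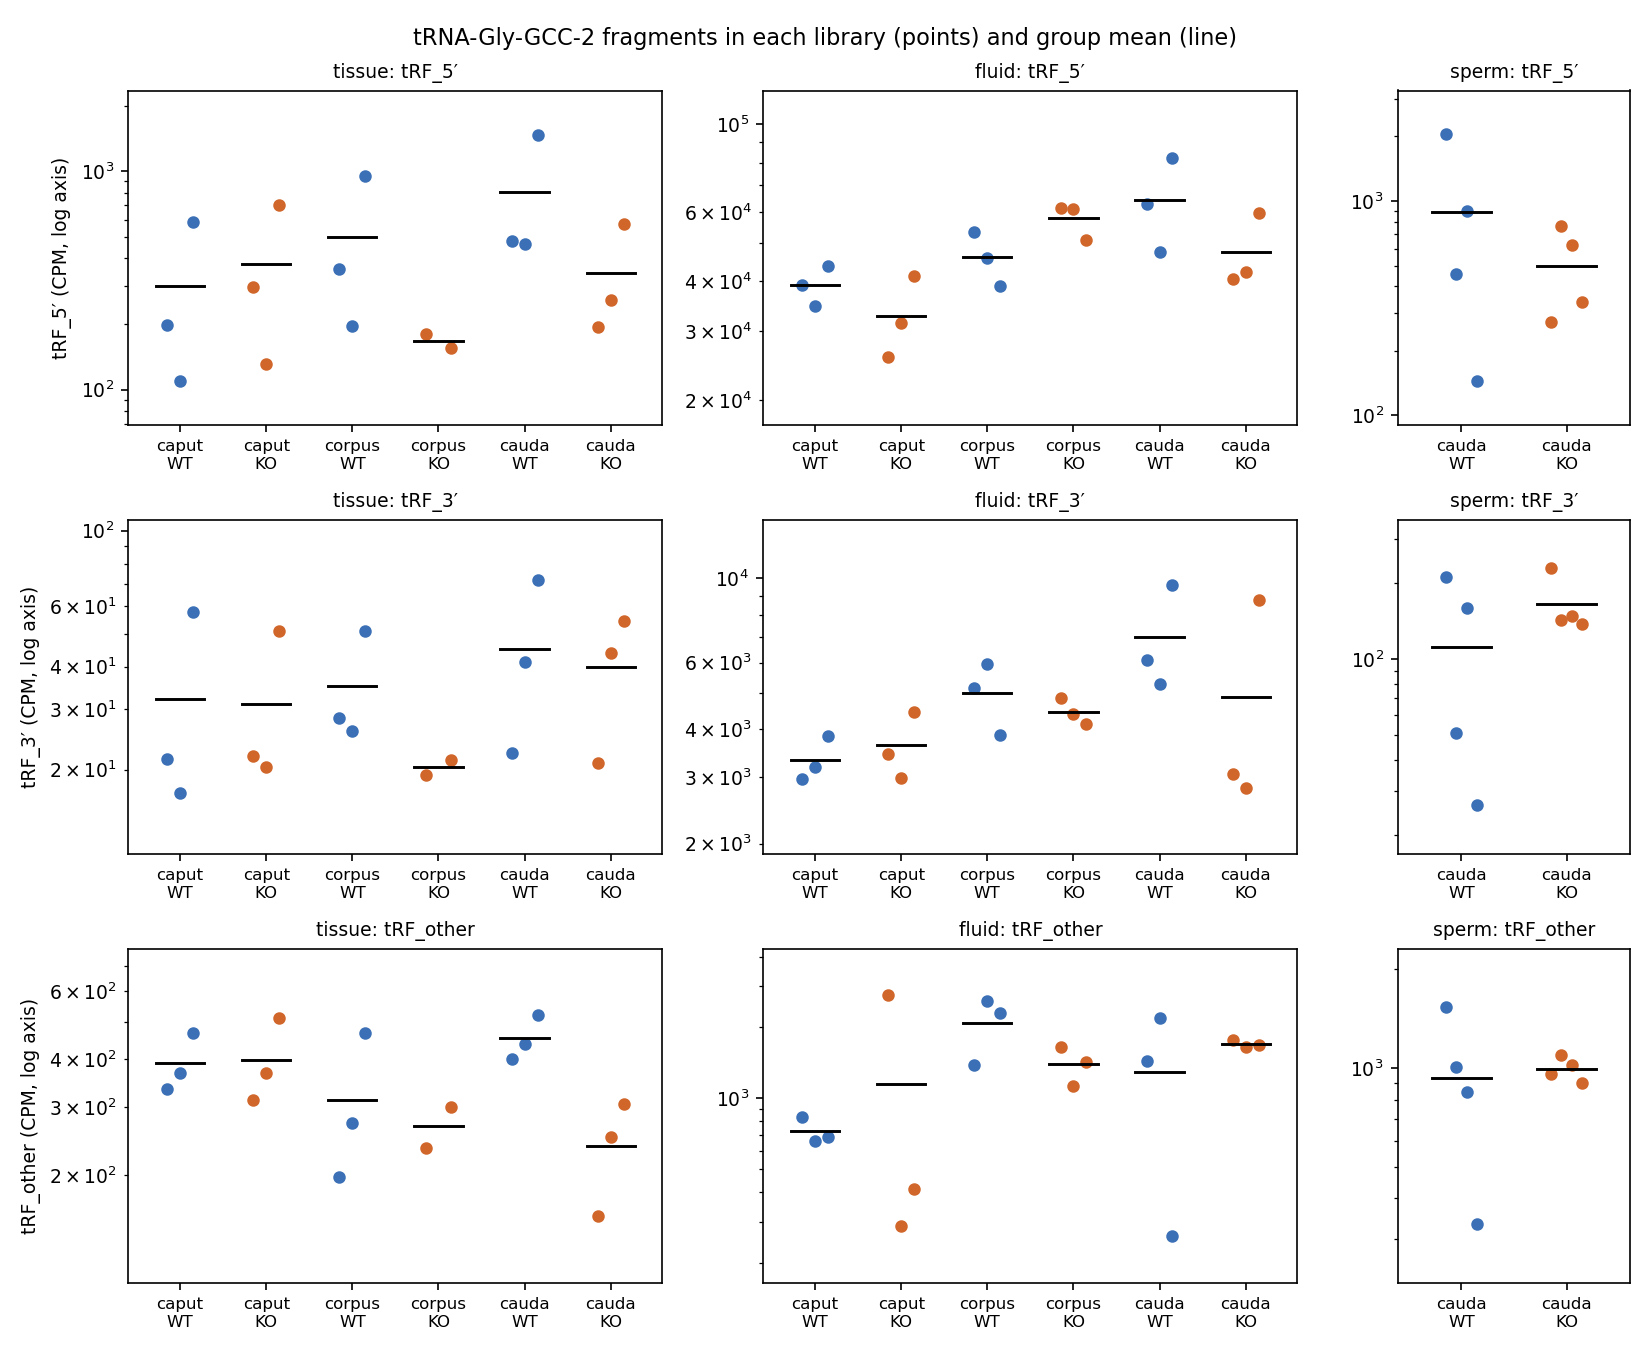
Level of tRNA-Gly-GCC-2 tRF_5′, tRF_3′ and tRF_other (rows) in tissue, fluid and sperm (columns), in CPM on log axes whose ranges differ between panels. Points are libraries (blue WT, orange KO) and lines are group means. In fluid the cauda WT points of tRF_5′ (47378 to 82105 CPM) and tRF_3′ (5282 to 9607 CPM) lie above the caput WT points, and in cauda tissue the KO points of tRF_other (156 to 305 CPM) lie below the WT points.

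KO and WT were compared in each segment to ask whether loss of the RNases changes tRNA-Gly-GCC fragments. Cauda tissue showed lower tRF_5′ and tRF_other values in KO and little difference in tRF_3′ of isodecoder 2, with calls that differed between the fits tried. tRNA-Gly-GCC-2 tRF_other was at 401, 439 and 521 CPM in the WT libraries and 156, 250.4 and 305 CPM in the KO libraries, without overlap (log2 fold change -0.94, SE 0.34, edgeR adjusted p = 0.189). tRNA-Gly-GCC-3 tRF_other was at 374, 402 and 367 CPM in WT and 126, 209.8 and 208 CPM in KO (log2 fold change -1.07, SE 0.29, edgeR adjusted p = 0.0994). tRNA-Gly-GCC-2 tRF_5′ was at 479, 465 and 1475 CPM in WT and 193, 258 and 576 CPM in KO (log2 fold change -1.24, SE 0.74, edgeR adjusted p = 0.469). Its groups overlapped, with replicate 3 high in both, and the difference within the same-numbered pairs was -1.36 to -0.85 on the log2 scale, lower in KO in 3 of 3. tRNA-Gly-GCC-2 tRF_3′ was at 22.3, 41.2 and 71.7 CPM in WT and 21, 43.8 and 54.6 CPM in KO (log2 fold change -0.18, SE 0.53, edgeR adjusted p = 0.908). The tRF_3′ entries of isodecoders 3 and 4 had log2 fold changes of -0.74 and -0.73, and that of isodecoder 1 of 0.34.

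None of the 12 members was called in cauda tissue by the edgeR fit without a block, against 0.86% of all 3488 RNAs (0.0287% higher and 0.831% lower). At an unadjusted edgeR p under 0.05 there were 6 of 12, a count whose share over all RNAs was not computed. All KO values lay below all WT values for 6 of 12, against 10.1% of all RNAs. Both counts hold the 4 tRF_other entries and 2 tRF_3′ entries. The tRF_other entries share reads, and the tRF_3′ counts of isodecoders 3 and 4 ran close together across tissue libraries. DESeq2 called the 4 tRF_other entries, against 7.76% of the 2256 RNAs to which it gave an adjusted p. Deviations of same-numbered WT and KO libraries correlated in each pair (0.281, 0.272 and 0.596), and in a fit blocked by replicate number 5 members were called lower, against 9.35% of all RNAs (5.79% higher and 3.56% lower). Without the replicate 3 libraries of every group, the 4 tRF_other entries were called lower (isodecoder 3: log2 fold change -1.24, SE 0.29, edgeR adjusted p = 0.0311), against 8.56% of all RNAs (2.04% lower). The 5 members of the blocked fit were tRF_5′ of isodecoders 2, 3 and 4 (isodecoder 2: log2 fold change -1.13, SE 0.28, edgeR adjusted p = 0.0143) and tRF_other of isodecoders 3 and 4 (isodecoder 3: log2 fold change -1.11, SE 0.24, edgeR adjusted p = 0.00777), while tRF_other of isodecoder 2 missed the fold limit (log2 fold change -0.98, SE 0.23, edgeR adjusted p = 0.0106). Values were also lower in KO for tRFs of all anticodons, these members included: the median log2 fold change without the block was -0.52 for all 199 tRF_5′, -0.44 for all 197 tRF_3′ and -0.74 for all 210 tRF_other, of which 0, 0 and 3 were called lower. In the comparison list the medians were -0.78 for 35 tRF_5′, -0.61 for 30 tRF_3′ and -0.81 for 36 tRF_other, of which 0, 0 and 3 were called lower. The blocked fit called 14 of all tRF_5′, 15 of all tRF_3′ and 40 of all tRF_other lower (1, 16 and 0 higher), and 6, 3 and 6 of the comparison list lower.

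Within a library, the ratio of tRF_5′ to tRF_3′ does not depend on the scaling between libraries. For isodecoder 2 in cauda tissue, its log2 value was 4.42, 3.49 and 4.36 in WT and 3.20, 2.56 and 3.40 in KO, with the KO libraries all below the WT libraries (mean difference -1.04, exact permutation test, 2-sided p = 0.1, adjusted p = 0.33). Summed over the 4 isodecoders, the difference was -0.90 and the groups overlapped (adjusted p = 0.508, exact permutation test). The log2 ratio of the tRF_5′ counts of isodecoder 1 to isodecoder 2 was -3.30, -3.33 and -3.63 in WT and -2.80, -3.09 and -3.13 in KO, which did not overlap either (mean difference 0.41, exact permutation test, p = 0.1, adjusted p = 0.33). The ratio of tRF_5′ to tRF_other of isodecoder 2 differed by -0.19 on the log2 scale, and its groups overlapped. Cell type markers are given beside these values. The 5 epithelial miRNA genes summed to 5.61 to 19.2 CPM in WT and 4.25 to 8.19 CPM in KO, and the smooth muscle genes (Mir143 and Mir145a, both counted) to 69.7 to 231 CPM in WT and 62.3 to 113 CPM in KO, with overlap in both lists. The endothelial Mir126a was at 0.543 to 1.34 CPM in WT and 0.199 to 0.564 CPM in KO. Their part in the differences was not tested.

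In caput tissue, KO and WT levels overlapped for most members. tRNA-Gly-GCC-2 tRF_5′ was at 198, 110.1 and 585 CPM in WT and 296, 131 and 703 CPM in KO (log2 fold change 0.34, SE 0.73, edgeR adjusted p = 0.9996). Over the 12 members the log2 fold change ran from -0.38 to 0.34, and 0 were called by edgeR or DESeq2, with 0 at an unadjusted p under 0.05, against 0.0% of all RNAs called by edgeR. All KO values were below all WT values for 2 members, tRF_3′ of isodecoders 3 and 4, whose counts ran close together in tissue (3.90% of all RNAs did so). For tRF_3′ of isodecoder 3 the levels were 10.2, 10.7 and 12.3 CPM in WT and 7.14, 8.6 and 9.87 CPM in KO. The KO effect in the cauda minus that in the caput was -1.57 for tRNA-Gly-GCC-2 tRF_5′ (SE 1.03, edgeR adjusted p = 0.927) and -0.97 for tRF_other (SE 0.48, edgeR adjusted p = 0.845). This interaction was called for 0 of 12 members by edgeR or DESeq2 and for 0.0% of all RNAs. At an unadjusted edgeR p under 0.05 there were 2 tRF_other entries, which share reads, and the share over all RNAs was not computed.

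In corpus tissue, with 2 KO libraries, all 12 members had negative log2 fold changes. tRNA-Gly-GCC-2 tRF_5′ was at 357, 196 and 953 CPM in WT and 180.0 and 155 CPM in KO, and both KO libraries lay below the WT libraries (log2 fold change -1.58, SE 0.86, edgeR adjusted p = 0.65). WT replicate 3 was far above the other two, and without it the log2 fold change was -0.75. tRNA-Gly-GCC-2 tRF_other was at 197, 273 and 467 CPM in WT and 235 and 301 CPM in KO, which overlapped, and its sign turned without WT replicate 3 (-0.22 with it and 0.17 without it). No member was called by edgeR or DESeq2, with 0 at an unadjusted p under 0.05, against 0.0% of all RNAs called by edgeR and 0.855% of 2807 by DESeq2. For 7 of 12 both KO libraries lay below every WT library, against 15.2% of all RNAs. These 7 were the 4 tRF_5′ entries, of which those of isodecoders 2, 3 and 4 are close to 1 measurement, and 3 tRF_3′ entries. Of the 6 marker lists, 5 were lower in KO without overlap and the germ cell genes overlapped. The epithelial genes summed to 8.16 to 9.99 CPM in KO and 13.4 to 27.1 CPM in WT, and the smooth muscle genes to 18.6 to 28.2 CPM and 36.4 to 83.8 CPM. The endothelial Mir126a was at 0.527 to 0.718 CPM in KO and 0.959 to 2.18 CPM in WT, and the leukocyte genes, with Mir223 at 0 in KO, summed to 0.0549 to 0.0634 CPM and 0.103 to 0.21 CPM. The red blood cell genes (1 of 3 counted) were at 0.0106 to 0.011 CPM and 0.0222 to 0.0442 CPM. At these levels the leukocyte and red blood cell lists rest on very few counts in most libraries, so their lack of overlap carries little weight. Their part was not tested.

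**Figure D4:**
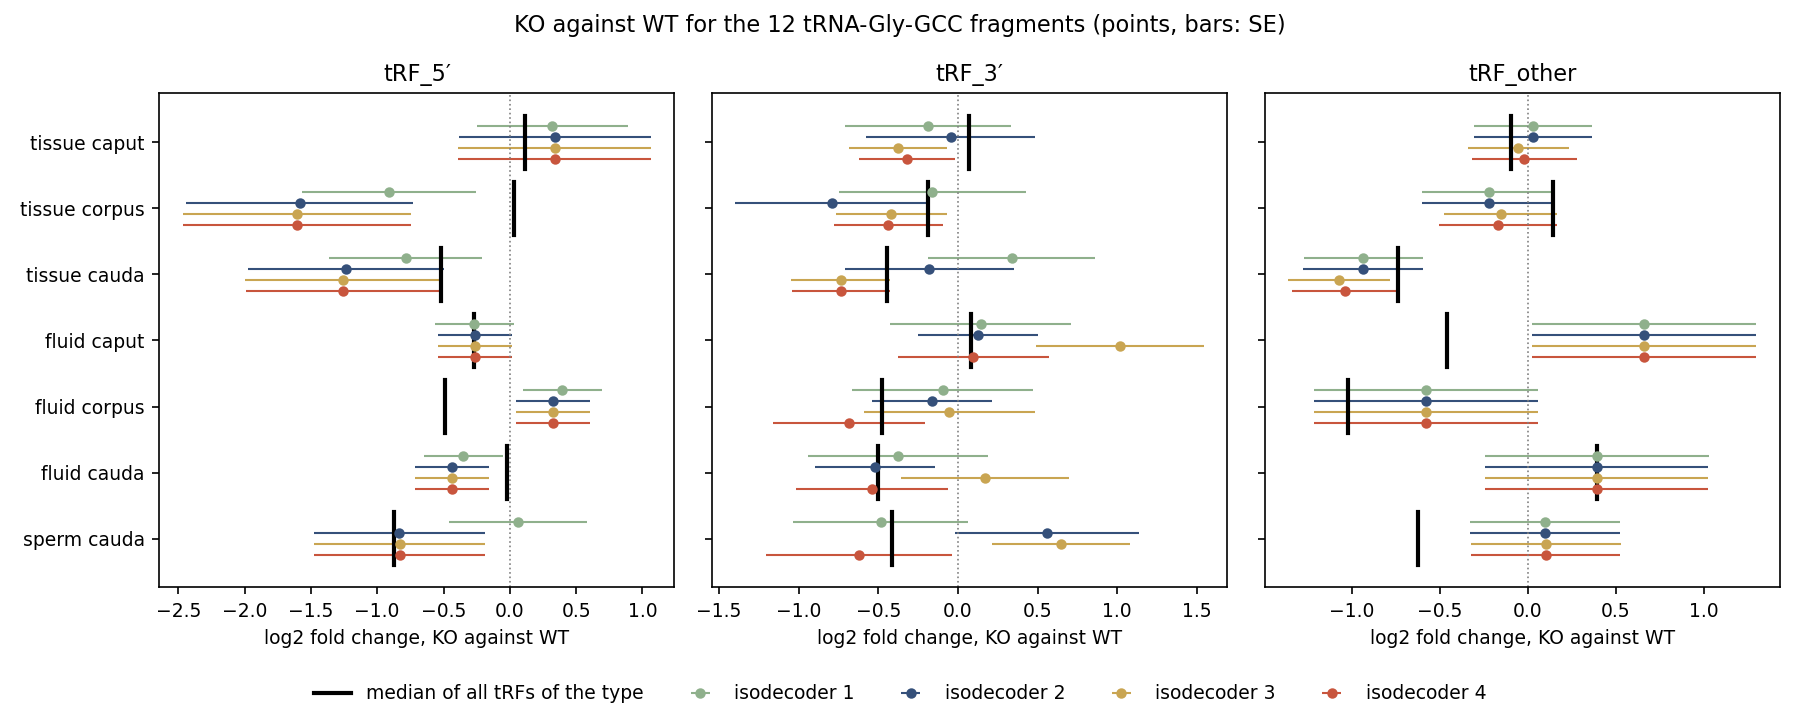
Log2 fold change of KO against WT (horizontal axis) for the 12 tRNA-Gly-GCC fragments, by fragment type (panels), comparison (vertical axis) and isodecoder (colours), with SE as bars and the median of all tRFs of the same type as a black line. In cauda tissue the tRF_5′ points lie at -0.79 to -1.26 and the tRF_other points at -0.94 to -1.07, with medians of -0.52 and -0.74. In corpus fluid the tRF_5′ points lie at 0.32 to 0.40 with a median of -0.49.

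In corpus fluid, tRNA-Gly-GCC fragments of all types together held a larger share of the tRF counts in every KO library than in any WT library. The level of tRF_5′ did not pass its test. The exact permutation test of the share could not pass, since 3 against 3 libraries allow no p below 0.1. The fragments made up 21.6, 22 and 22.8% of tRF counts in the WT libraries and 26.9, 29.8 and 26.5% in the KO libraries (mean difference 5.60 percentage points, exact permutation test, p = 0.1, adjusted p = 0.33). With the most counted isodecoder of each anticodon and fragment type, the shares were 13.6% ± 0.432 (SD, n = 3) and 15.6% ± 0.86 (SD, n = 3). tRNA-Gly-GCC-2 tRF_5′ was at 53399, 45958 and 39041 CPM in WT and 61333, 60890.2 and 51008 CPM in KO, with overlap (log2 fold change 0.32, SE 0.28, edgeR adjusted p = 0.453). The sign of this fold change depended on the scaling: when tRFs, tRNAs and rsRNAs (fragments of ribosomal RNA) were left out of the TMM factors it was -0.54, and the median of all RNAs moved by -0.85 with it. Under that scaling tRNA-Gly-GCC-4 tRF_3′ was called lower (log2 fold change -1.54, edgeR adjusted p = 0.0239), against 33.0% of all RNAs (25.6% lower). tRNA-Gly-GCC-1 tRF_5′ was at 4821, 4235 and 3977 CPM in WT and 6587, 5689 and 4875 CPM in KO, without overlap (log2 fold change 0.40, SE 0.30, edgeR adjusted p = 0.38), which held for 20.4% of all RNAs.

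The tRF_3′ and tRF_other values of corpus fluid had the opposite sign to tRF_5′. tRNA-Gly-GCC-4 tRF_3′ was at 6140.1, 5413 and 3387 CPM in WT and 2985, 2615 and 3689 CPM in KO (log2 fold change -0.69, SE 0.48, edgeR adjusted p = 0.333), and tRNA-Gly-GCC-2 tRF_3′ at 5138, 5934 and 3879 and 4833, 4394 and 4145 CPM (log2 fold change -0.16, SE 0.38, edgeR adjusted p = 0.853). tRNA-Gly-GCC-2 tRF_other was at 1386, 2601 and 2296 CPM in WT and 1649, 1128 and 1428 CPM in KO (log2 fold change -0.58, SE 0.64, edgeR adjusted p = 0.582). None of the 12 members was called by edgeR or DESeq2, with 0 at an unadjusted p under 0.05, against 19.7% of all 2023 RNAs (13.4% higher and 6.23% lower). Among all tRFs, 0 were called higher and 106 lower, with medians of -0.49 for tRF_5′, -0.48 for tRF_3′ and -1.02 for tRF_other. In the comparison list the medians were 0.10 for 27 tRF_5′, -0.46 for 26 tRF_3′ and -0.72 for 36 tRF_other, with 2, 1 and 6 called lower. The log2 ratio of tRF_5′ to tRF_3′ of isodecoder 2 was 3.38, 2.95 and 3.33 in WT and 3.67, 3.79 and 3.62 in KO, without overlap (mean difference 0.47, exact permutation test, p = 0.1, adjusted p = 0.33), and the difference was 0.70, also without overlap, when the 4 isodecoders were summed. Beside these values, the KO libraries were shallower than the WT libraries, their epithelial miRNA genes summed to 89.3 to 166 CPM against 28.3 to 76.5 CPM in WT, their germ cell genes to 12.9 to 18 CPM against 3.74 to 11.3 CPM, and the endothelial Mir126a was at 25.9 to 91.3 CPM against 9.33 to 23.4 CPM. Their part in the result was not tested.

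In caput and cauda fluid, KO and WT overlapped for all 12 members. In the caput, tRNA-Gly-GCC-2 tRF_5′ was at 39266, 34633 and 43880.5 CPM in WT and 25724, 31382 and 41170.3 CPM in KO (log2 fold change -0.26, SE 0.28, edgeR adjusted p = 0.816). tRF_other of isodecoder 2 was at 833, 662 and 683 CPM in WT and 2746, 287 and 411 CPM in KO, with KO replicate 1 above and the other KO libraries below the WT libraries, and its log2 fold change of 0.66 was -0.96 without that library. The log2 ratio of tRF_5′ to tRF_3′ was 3.73, 3.44 and 3.52 in WT and 2.90, 3.39 and 3.21 in KO, without overlap (mean difference -0.40, exact permutation test, p = 0.1, adjusted p = 0.33), and the groups overlapped once the 4 isodecoders were summed. Of the 6 marker lists, 4 were higher in KO caput fluid without overlap, and those of smooth muscle and red blood cells overlapped. The epithelial genes summed to 97 to 168 CPM in WT and 236 to 289 CPM in KO, and the endothelial Mir126a was at 13.1 to 27 CPM and 27.3 to 36.5 CPM. The leukocyte genes summed to 6.77 to 10.5 CPM in WT and 13.3 to 22 CPM in KO, and the germ cell genes to 1.85 to 3.29 CPM and 3.42 to 3.84 CPM. Their part was not tested. In the cauda, tRNA-Gly-GCC-2 tRF_5′ was at 63009, 47378 and 82105 CPM in WT and 40521, 42154 and 59729 CPM in KO (log2 fold change -0.43, SE 0.28, edgeR adjusted p = 0.617), with overlap. tRNA-Gly-GCC-4 tRF_3′ was at 5364, 7148 and 13088 CPM in WT and 2739, 2389 and 12495 CPM in KO (log2 fold change -0.54, SE 0.48, edgeR adjusted p = 0.741), and its KO replicate 3 was several times higher than the other KO libraries. Without KO replicate 3, 3 tRF_3′ entries were called lower, with log2 fold changes of -1.78 for isodecoder 4 (edgeR adjusted p = 0.032) and -1.31 for isodecoder 2 (edgeR adjusted p = 0.0402), against 1.82% of all RNAs called (0.885% lower). The third was isodecoder 1 (log2 fold change -1.99, edgeR adjusted p = 0.0335). With all libraries, 0 of 12 members were called by edgeR or DESeq2 in either segment, with 0 at an unadjusted p under 0.05, against 0.0% of all RNAs by edgeR in the caput and 0.0% in the cauda. DESeq2 called 0.39% of 2306 RNAs in the caput and 3.06% of 1374 in the cauda.

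The KO effect in corpus fluid minus that in cauda fluid was 0.76 for tRNA-Gly-GCC-2 tRF_5′ (SE 0.40, edgeR adjusted p = 0.261), and 0 of 12 members were called by edgeR or DESeq2, with 0 at an unadjusted p under 0.05, against 7.37% of all RNAs (4.5% higher and 2.87% lower). Its sign turned under the scaling without tRFs, tRNAs and rsRNAs (-0.13). The median of all 183 tRF_5′ was -0.46 with 0 called higher and 21 lower, and that of the 27 tRF_5′ of the comparison list was 0.51 with 0 called.

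In sperm, the KO libraries held less tRF_5′ per tRF_3′ of isodecoder 2 and less tRF_3′ of isodecoder 4 per isodecoder 2. Neither ratio passed its test after adjustment, and no single member passed the test of levels. The log2 ratio of tRF_5′ to tRF_3′ of isodecoder 2 was 3.28, 3.17, 2.51 and 2.45 in the 4 WT libraries and 0.25, 2.41, 2.07 and 1.28 in the 4 KO libraries, with every KO library below every WT library (mean difference -1.35, exact permutation test, 2-sided p = 0.0286, the smallest that 4 against 4 libraries allow, adjusted p = 0.33 over 66 tests). Summed over the 4 isodecoders the difference was -0.83 and did not separate the groups (adjusted p = 0.508, exact permutation test). The tRF_3′ count of isodecoder 4 was 60.7, 86.3, 53.5 and 45.2% of that of isodecoder 2 in WT and 20.02, 33, 28.9 and 28.5% in KO (mean log2 difference -1.13, exact permutation test, p = 0.0286, adjusted p = 0.33). The counts behind this ratio were 8213, 113, 161 and 33 for isodecoder 4 and 13533, 131, 301 and 73 for isodecoder 2 in WT, and 1298, 2252, 2863 and 115 and 6485, 6829, 9897 and 403 in KO. The smallest of these, WT replicate 4, is the least precise. Depth was uneven between the genotypes, since 3 of 4 WT libraries but 1 of 4 KO libraries were shallow. Among the deep libraries, WT replicate 1 lay above KO replicates 1, 2 and 3 in both ratios (mean log2 differences -1.70 and -1.18, 1 against 3 libraries, no test). Among the shallow libraries, WT replicates 2, 3 and 4 lay above KO replicate 4 in both.

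The levels in sperm spread widely between WT libraries. tRNA-Gly-GCC-2 tRF_5′ was at 2050.0, 458, 903 and 145 CPM in WT and 273, 762, 626 and 336 CPM in KO (log2 fold change -0.83, SE 0.65, edgeR adjusted p = 0.57). tRF_3′ of isodecoder 2 was at 212, 51.1, 159 and 26.4 CPM in WT and 229.8, 144, 149 and 138 CPM in KO (log2 fold change 0.56, SE 0.58, edgeR adjusted p = 0.708), and that of isodecoder 4 at 128, 44.1, 85 and 11.9 and 46, 47.3, 43.1 and 39.5 CPM (log2 fold change -0.62, SE 0.58, edgeR adjusted p = 0.665). Among the 4 deep libraries alone, the log2 fold change was -2.06 for tRF_5′ of isodecoder 2, -0.45 for its tRF_3′ and -1.67 for tRF_3′ of isodecoder 4 (1 WT against 3 KO libraries). tRF_3′ of isodecoder 3 was at 14.9, 15.6, 12.7 and 16.3 CPM in WT and 38.7, 18, 17.5 and 18.9 CPM in KO, without overlap (log2 fold change 0.65, SE 0.43, edgeR adjusted p = 0.504), and 8.15% of all RNAs had every KO library above every WT library. tRNA-Gly-GCC-2 tRF_other was at 1533, 1005, 846 and 334 CPM in WT and 959, 1097, 1024 and 902 CPM in KO (log2 fold change 0.10, SE 0.43, edgeR adjusted p = 0.929). No member was called by edgeR or DESeq2, with 0 at an unadjusted p under 0.05, against 0.0% of all 2480 RNAs called by edgeR and 4.61% of 3039 by DESeq2. The median log2 fold change was -0.87 for all 167 tRF_5′, -0.42 for all 170 tRF_3′ and -0.62 for all 196 tRF_other, and -0.19, -0.81 and -0.39 for the comparison list, with 0 called. The germ cell miRNA genes summed to 15.9 to 57.4 CPM in WT and 25.4 to 34.8 CPM in KO. Markers of other cells were counted as well. The epithelial genes summed to 5.52 to 23.3 CPM in WT and 10.4 to 20.2 CPM in KO. The red blood cell genes (2 of 3 counted) summed to 4.41 to 9.33 CPM in WT and 1.04 to 61.6 CPM in KO. Every marker list overlapped between KO and WT, and their part was not tested.

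**Figure D5:**
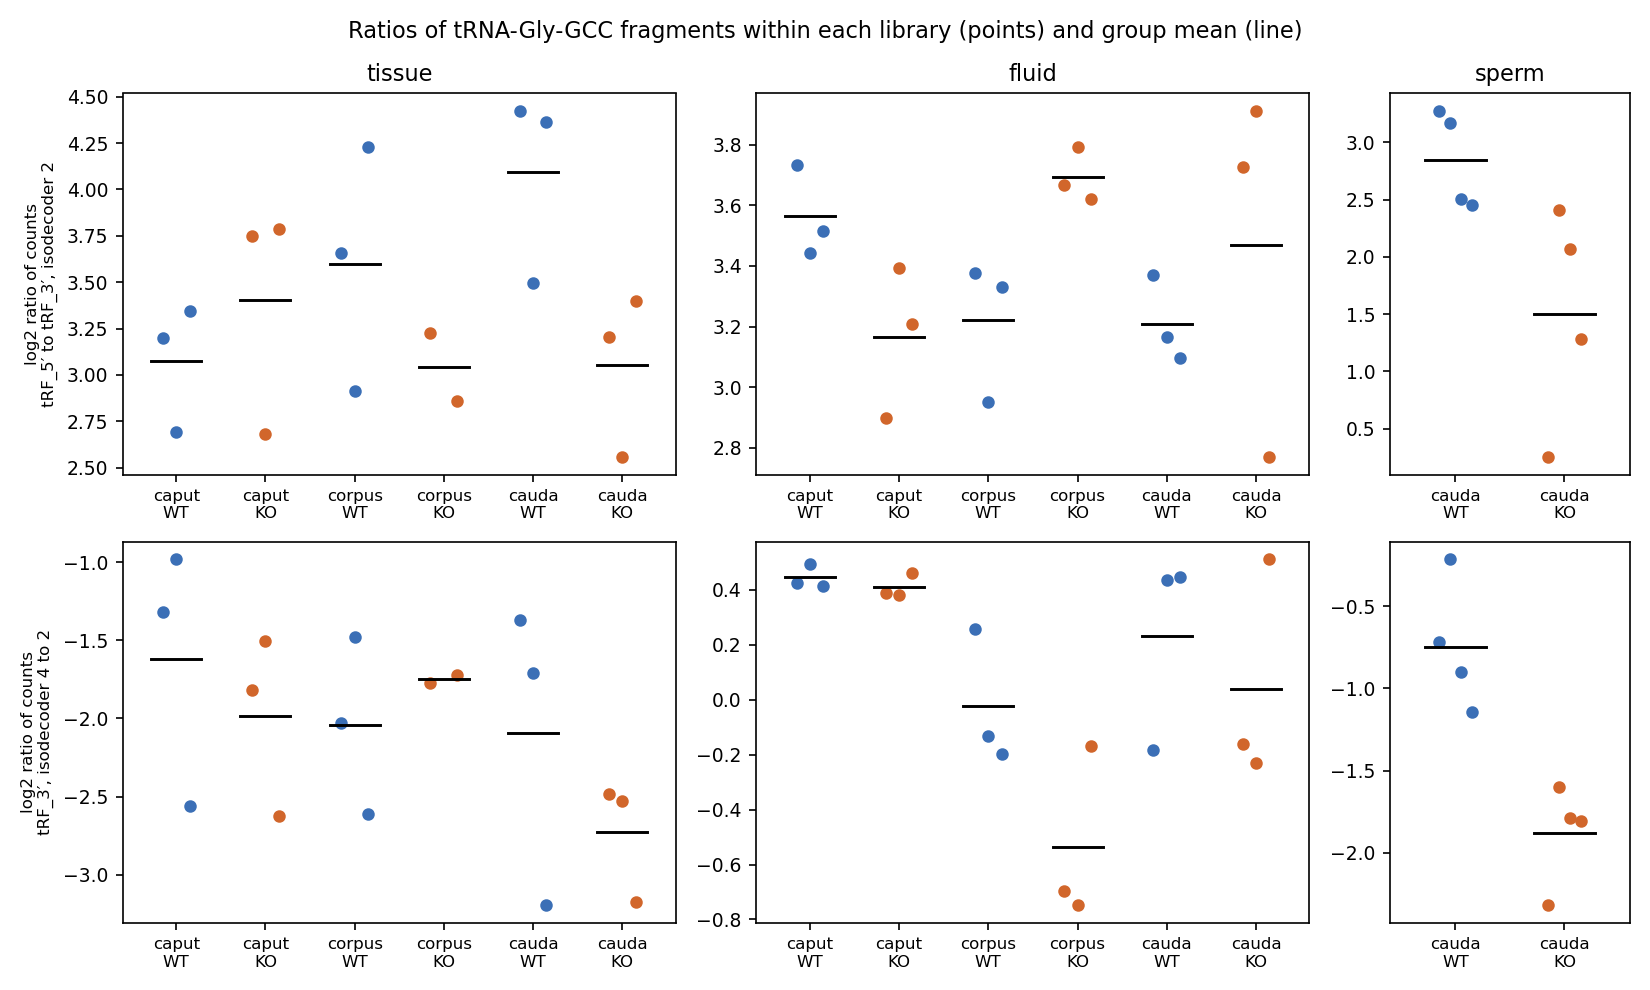
Log2 ratios of counts within each library, tRF_5′ to tRF_3′ of isodecoder 2 (upper row) and tRF_3′ of isodecoder 4 to isodecoder 2 (lower row), in tissue, fluid and sperm, with axis ranges that differ between panels. Points are libraries (blue WT, orange KO) and lines are group means. The sperm KO points lie below the sperm WT points in both rows, and in the lower row the fluid points scatter around 0 while tissue and sperm points are below it.

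Reads of full-length tRNA-Gly-GCC were rare against its fragments. The paper states that its sequencing method favours shorter RNAs and captures only part of the full-length tRNAs. The rarity therefore cannot be read as a proportion of RNAs in the sample. For isodecoder 2, the fragment counts per full-length count in cauda tissue were 477, 238 and 405 in WT and 76.9, 44.9 and 208 in KO, without overlap. They overlapped between KO and WT in the other tissue segments, with 134 to 369.6 and 159 to 167 in the WT and KO caput and 74.6 to 317 and 92.4 to 108 in the WT and KO corpus. In fluid, KO lay below WT without overlap in the caput (4203, 2558 and 6599 in WT, 433, 1209.7 and 1506 in KO) and in the corpus (9186 to 44604 and 2678 to 7026), and the cauda overlapped (4100.3 to 67640 and 6025 to 72279.8). None of these was tested, and in corpus and cauda fluid they rest on 5 to 152 full-length counts per library. In sperm, the full-length counts of isodecoder 2 were 33, 1, 5 and 0 in WT and 0, 2, 1 and 0 in KO, too few for a ratio.

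The RNAs outside tRNA-Gly-GCC whose levels followed tRNA-Gly-GCC-2 tRF_5′ most closely, by Pearson's r of log2 CPM across libraries, were tRFs in each table. In the 17 tissue libraries they were tRNA-Glu-CTC-1 tRF_5′ (r = 0.956), tRNA-Arg-CCT-2 tRF_3′ (0.945) and tRNA-Asp-GTC-1 tRF_3′ (0.940). In the 18 fluid libraries they were tRNA-Val-AAC-1 tRF_5′ (r = 0.866), tRNA-Val-CAC-2 tRF_5′ (0.855) and tRNA-Val-CAC-1 tRF_5′ (0.826). In the 8 sperm libraries they were tRNA-His-GTG-2 tRF_5′ (r = 0.985), tRNA-Leu-CAA-3 tRF_3′ (0.984) and tRNA-Leu-CAA-2 tRF_3′ (0.984). The other fragment types of isodecoder 2 followed it less closely: r was 0.871 for tRF_3′ and 0.568 for tRF_other in tissue, 0.777 and -0.101 in fluid, and 0.612 and 0.807 in sperm. These values describe libraries that share scaling, depth and groups, and they carry no test.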

How the data were processed

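Small RNA libraries of epididymis tissue (ARM-seq), epididymal fluid and cauda sperm (both OTTR-seq) were taken from 3 deposited tables, 1 per material. Per the study's methods, adapters were trimmed (in OTTR-seq also a tag of 7 bases) and reads were aligned to the mouse genome and mature tRNAs; the submitters' processing notes name cutadapt and UMI-tools, without versions, and the build mm10. Whether the tags were used to collapse duplicates is not given in the sources used here. The values deposited by the authors are raw counts per RNA, where tRNAs took only reads that point to a single anticodon and a read with several equally good matches was added to each of them, so the 4 isodecoders share reads and their entries are not independent.

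Libraries were grouped by their titles. From the counts, edgeR 4.0.16 (R 4.3.3) gave TMM-scaled counts per 1000000 (CPM) and quasi-likelihood tests in 1 fit per table over all its groups, after a filter on low counts by group (minimum count 10, minimum total 15), with Benjamini-Hochberg adjustment over all RNAs tested. Marker gene CPM used the library total alone, without TMM scaling. A call required an adjusted p under 0.05 together with a log2 fold change beyond 1 in size. The 13 comparisons were 7 of KO against WT, 4 of WT segments and 2 interactions. Log2 ratios and shares within libraries were compared by 2-sided exact permutation tests (scipy 1.17.1), adjusted over 66 tests, for which the smallest possible p was 0.1 for 3 against 3 libraries, 0.2 for 3 against 2 and 0.0286 for 4 against 4. With these limits no adjusted p of a ratio or share could fall under 0.05. The tests were tried on simulated counts first. Intervals of counting error were not drawn, because the spread between libraries was wider.

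The entries were taken by name, and the most counted isodecoder of each fragment type is described in full (isodecoder 2 where its entry was near-identical). The entries, the comparison list of 8 anticodons, the marker genes and the ratios were chosen with earlier results and counts of these data known. Same-numbered libraries were taken as pairs where each correlation of their deviations from the group means was over 0.1. In tissue this held for cauda KO and WT (0.281, 0.272 and 0.596), for WT corpus and caput (0.312, 0.383 and 0.555) and for WT cauda and caput (0.306, 0.394 and 0.633), from the data alone, since the labels do not say what a number marks. The block was fitted over all tissue libraries, those of comparisons where this did not hold included. Alternatives were other scalings, DESeq2 1.42.0, no filter, the replicate block, the groups of a comparison alone, sums or most counted entries per anticodon, and each library left out. Leaving out the tissue replicate 3 libraries and keeping only the sperm libraries with over 10000000 counts were chosen after the data were seen. tRNA genes came from RefSeq (GRCm38.p6) and their surroundings from GENCODE vM21. Columns of the tables without a sample here numbered 0. The authors' own comparisons were not used.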

Additional observations from a re-analysis of the deposited data

Results flagged for a closer look

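Among the groups of 4 sperm libraries, 36 sets of values were examined for a library far from the others, and 4 were so by Dixon's criterion, which chance meets in about 1 of 20 sets. In sperm KO, replicate 1 stood above the other 3 libraries in tRF_3′ of tRNA-Gly-GCC-1 (17.01 CPM), tRNA-Gly-GCC-2 (230 CPM) and tRNA-Gly-GCC-3 (38.7 CPM). In sperm WT, replicate 4, the library with the fewest counts of tRNA-Gly-GCC-2 tRF_3′ (73), had a log2 ratio of tRF_5′ counts of isodecoder 1 to isodecoder 2 of -1.18, against -2.61 to -2.46 in the others. The log2 ratio of tRF_5′ to tRF_3′ of isodecoder 2 in fluid had KO below WT in every caput library (difference -0.40) and KO above WT in every corpus library (difference 0.47), and the difference between the segments was not tested.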

How the results depend on the processing

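The number of members called in cauda tissue KO against WT was 4 with DESeq2, 5 with the replicate block, 1 with counts summed by anticodon and fragment type, 4 without the replicate 3 libraries and 0 to 1 with 1 library left out (1 without KO replicate 3), against 0 in the fit reported. In WT cauda against caput tissue it was 3 with the block, 4 without the replicate 3 libraries and 0 to 3 with 1 library left out (3 without caput replicate 3), against 0. In fluid it was 1 for corpus KO and 4 for WT corpus against caput under the scaling without tRFs, tRNAs and rsRNAs, 4 for the latter with the 2 groups alone, and 0 to 3 for cauda KO with 1 library left out. For WT cauda against caput fluid, with 1 call reported, it was 2 with DESeq2 size factors, DESeq2, no filter or the 2 groups alone, 5 under the scaling without tRFs, tRNAs and rsRNAs, 0 by library size or with sums, and 0 to 2 with 1 library left out. The replicate block changed no other count of calls: in the comparisons whose numbers did not pair the libraries, it gave 0 calls for KO against WT and for both interactions, 0 for WT corpus against caput fluid and 1 for WT cauda against caput fluid.

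Log2 fold changes that turned sign were those of tRNA-Gly-GCC-2 tRF_5′ (-0.49 to 1.20 with 1 library left out) and tRF_3′ (-0.62 to 0.60) in caput tissue KO, of tRF_other in corpus tissue KO (-0.47 to 0.17) and of tRF_5′ in WT corpus against caput tissue (-0.12 to 1.67). In WT cauda against caput tissue tRF_other was -0.21 by library size and -0.15 with the most counted entries. In fluid they were tRF_other in caput KO (-0.96 to 1.30), tRF_5′ in corpus KO (-0.54 under the scaling without tRFs, tRNAs and rsRNAs, -0.38 with the most counted entries), tRNA-Gly-GCC-4 tRF_3′ in cauda KO (-1.78 to 0.0493) and, for the corpus minus cauda KO effect, tRF_5′ (-0.13 under that scaling) and tRF_3′ of isodecoder 2 (-0.48 under that scaling, -0.27 to 0.996 with 1 library left out) and isodecoder 4 (-0.91 to 0.92). In sperm, tRF_3′ of isodecoder 2 was -0.036 by library size, and among the deep libraries it was -0.45, tRF_other -0.75, tRNA-Gly-GCC-1 tRF_5′ -1.02 and the share of tRF counts -2.17 percentage points. The cause was not tested. Other scalings moved the median of all RNAs by -0.54 to 0.06 in tissue, -0.92 to 0.45 in fluid and -0.30 to -0.19 in sperm. Of 741 other values of 50 log2 fold changes 691 kept direction and call, and of 597 values of 66 ratios and shares 596 kept direction. A turn of sign within the error without a call (61 and 32 values) was not counted. No ratio or share could be called under any setting, because so few libraries allow no adjusted p under 0.05 over 66 tests. Shallow sperm libraries, with as few as 33 counts of tRNA-Gly-GCC-4 tRF_3′, limit the sperm ratios.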
